A study of Mus musculus with 10 samples.

Results

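The Rab genes encode the largest branch of the Ras superfamily of small GTPases, and their messenger RNA levels were compared here in the hippocampus of mice injected with a vector for irisin and of mice injected with a vector for GFP. A gene was counted as a Rab gene if its symbol consisted of Rab, a number and at most 1 letter, and it was kept if 5 or more of the 10 libraries had a value of 10 or higher. Of 59 such symbols in the deposited table, 55 were kept, out of 17556 genes that passed the same filter and 31510 genes in all. Irisin is a hormone of exercising muscle, cut from the outer part of the product of Fndc5. The 2 groups were AAV8-irisin, 5 male APP/PS1 mice given AAV8-irisin-FLAG through the tail vein at 8 months of age, and AAV8-GFP, 5 male APP/PS1 mice given AAV8-GFP in the same way and at the same age. The vector was meant to make the liver produce irisin, and the dissected hippocampi were sequenced 2 months later. All 10 mice carried the mutant APP and presenilin transgenes of strain 34832-JAX, which are driven by the mouse prion protein promoter, so the comparison is between injected mice that all form amyloid, and it says nothing of mice without amyloid. Each library came from 1 mouse.

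A Rab protein switches between a GTP-bound form that sits on a membrane and a GDP-bound form that is drawn off into the cytosol. Exchange factors load GTP, GTPase-activating proteins speed its hydrolysis, GDP dissociation inhibitors carry the inactive form, and effectors such as tethers and motors bind the active form. Each Rab marks particular membranes, so the family as a whole forms an address system for vesicles, and in neurons it covers synaptic vesicle release, endosomal sorting, lysosomal degradation and delivery of receptors to the surface.

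Libraries detected similar numbers of genes, with 22434 to 23035 genes above 0 in each. For the tissue label, all 12 listed markers of hippocampal neurons were among the genes tested, and their summed level was 246223 to 261773 in AAV8-irisin mice and 227562 to 291248 in AAV8-GFP mice. Of the 12 microglial markers, 0 had a higher mean in AAV8-irisin mice, and their summed level was 18389 to 23055 in AAV8-irisin mice and 19968 to 26293 in AAV8-GFP mice. All 4 tested choroid plexus markers had a higher mean in AAV8-irisin mice, with summed levels of 47.4 to 1662 in AAV8-irisin mice and 42.7 to 98.7 in AAV8-GFP mice, while the markers Kcnj13 and Otx2 were below the filter. All 6 ependymal markers also had a higher mean in AAV8-irisin mice (summed levels of 509 to 751 in AAV8-irisin mice and 269.9 to 736 in AAV8-GFP mice), as did all 8 oligodendrocyte markers (122993 to 147245 in AAV8-irisin mice and 106132 to 141625 in AAV8-GFP mice). Of the 8 astrocyte markers 1 had a higher mean (161938 to 169827 in AAV8-irisin mice and 155556 to 196202 in AAV8-GFP mice). All 5 red cell markers had a lower mean in AAV8-irisin mice, 3 of them with an unadjusted limma p under 0.05, and their summed level was 1669 to 3211 in AAV8-irisin mice and 1585.5 to 4502 in AAV8-GFP mice. AAV8-GFP mouse 3 held the extreme level of several of these lists, and the counts were not taken again without it. Its mean log2 level of the ependymal markers was 4.90, against 5.91 to 6.61 in the other 9 mice. It was also the lowest of the 10 for oligodendrocyte (12.53) and choroid plexus markers (3.30), and the highest for astrocyte (13.50) and microglial markers (10.64). For choroid plexus markers AAV8-irisin mouse 4 (6.52) and AAV8-irisin mouse 3 (5.09) were highest, and the rest of both groups had 3.30 to 4.49. The part of these cells in the Rab values was not tested beyond the correlations given below. In whole tissue, fewer cells of a type and less RNA per cell cannot be told apart. In the Rab values, the library of AAV8-GFP mouse 1 stood apart from the other 9. It held the lowest or the highest value of the 10 mice for 28 of the 55 Rab genes, against 3 to 14 Rab genes in each other library. Values without it are therefore given beside many of the differences below, but not beside all that it moved.

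Levels differed far more between Rab genes than between mice. Divided by the length of the gene's exons, the values spanned 811-fold, from 7228 ± 168 normalised counts per kilobase for Rab3a to 8.91 ± 3.01 for Rab7b (SD over 10 mice), with a median of 451 over the 55 genes. The 5 highest were Rab3a, which docks synaptic vesicles at the active zone, Rab6b with 6284 ± 159 and Rab6a with 5425 ± 146, which act in traffic at the Golgi, Rab2a with 4643 ± 61.5, which acts between endoplasmic reticulum and Golgi, and Rab7 with 3908 ± 43.4, the main Rab of late endosomes and lysosomes. These 5 made up 49.4% of the summed level per kilobase of the family. Each of them lay above the next in all 10 mice, and their ranges over mice did not overlap. Below them the order was less distinct: Rab5c (2089 ± 53.8 per kilobase), Rab1b (1907 ± 79.5), Rab10 (1828 ± 54.6), Rab1a (1628 ± 31.8), Rab3c (1564 ± 106) and Rab15 (1556 ± 60.7) followed, and Rab3c was above Rab15 in only 6 of 10 mice. Over the whole order, 11 of 54 pairs of neighbours had ranges that did not overlap. The length used was the union of all annotated exons, which can exceed that of the transcript expressed, and the SD over mice does not cover this. Before division by length, Rab6b (31613 normalised counts), Rab6a (20225) and Rab3c (18841) lay above Rab3a (16090.5).

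**Figure D1:**
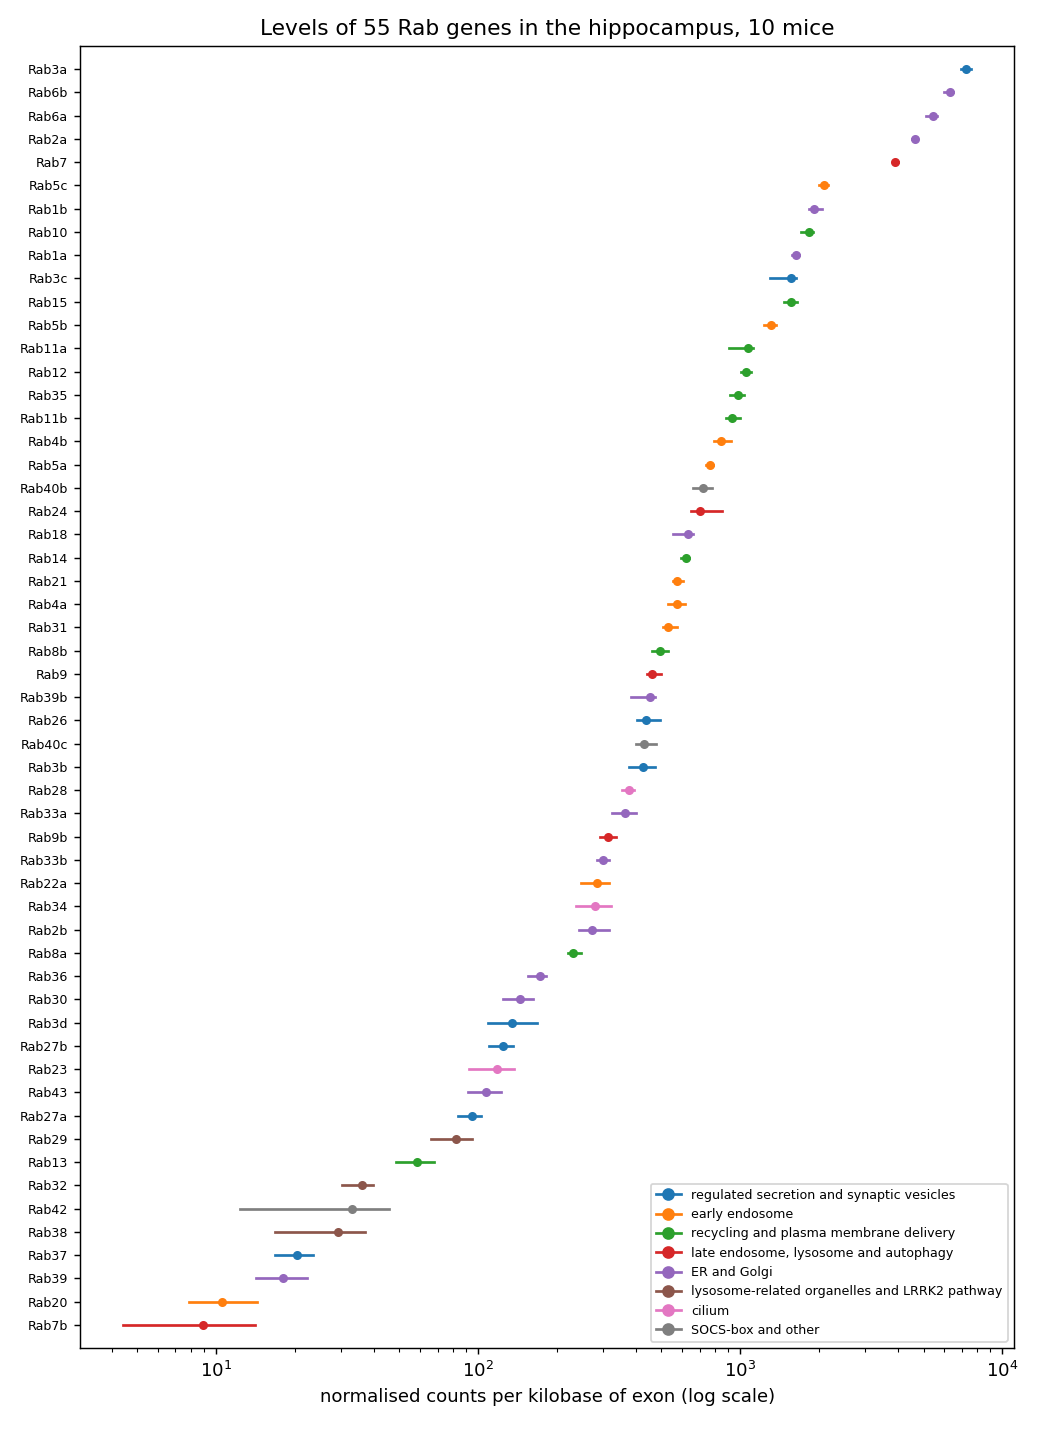
Level of each of the 55 Rab genes in normalised counts per kilobase of exon (log scale), in descending order, with the mean of all 10 mice as a point, their range as a bar and the colour giving the role. Rab3a, Rab6b, Rab6a, Rab2a and Rab7 stand at the top without overlap, and the widest bars are those of rare genes such as Rab42 and Rab7b.

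Summed over roles, the Rabs of the endoplasmic reticulum and Golgi held the most RNA per kilobase, with 22235 to 22568 in AAV8-irisin mice and 21828 to 22562 in AAV8-GFP mice. The Rabs of regulated secretion followed with 9817 to 10141 in AAV8-irisin mice and 9967 to 10217 in AAV8-GFP mice, and those of recycling and delivery to the plasma membrane with 8719 to 8900.3 in AAV8-irisin mice and 8613 to 8878 in AAV8-GFP mice. Early endosome Rabs summed to 6956 to 7072 per kilobase in AAV8-irisin mice and 6794 to 7071 in AAV8-GFP mice. The 3 Rabs of lysosome-related organelles held the least, with 139 to 156 in AAV8-irisin mice and 136 to 155 in AAV8-GFP mice. For each of these roles the ranges of the groups overlapped. The sums rise with the number of members, which was 14 for endoplasmic reticulum and Golgi, 8 for regulated secretion, 10 for recycling and delivery and 9 for early endosomes.

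Between the groups, 0 of the 55 Rab genes passed the test (limma on log2(value + 1), Benjamini-Hochberg adjusted over all 17556 genes, two-sided), against a background of 0% of all genes tested, with adjusted p-values of 0.942 to 0.999. At an unadjusted limma p under 0.05 stood 1 Rab gene, Rab34, which was lower, and 4.49% of all genes tested, 2.28% higher and 2.21% lower in AAV8-irisin mice. The groups overlapped for all 55 Rab genes, whereas 0.803% of all genes had groups that did not overlap. The mean was higher in AAV8-irisin mice for 31 Rab genes and lower for 24, with a median log2 difference of 0.0048, and over all genes 50.5% were higher with a median of 0.00099. Differences were small: their median size was 0.032 on the log2 scale for the Rab genes and 0.057 for all genes. These 2 values are not matched for level. At a mean of 10 to 100 the median size was 0.14 for Rab genes and 0.15 for all genes. At 100 to 1000 it was 0.074 for Rab genes and 0.059 for all genes. At 1000 to 4000 it was 0.019 and 0.037, and at 4000 or more 0.026 and 0.032. For 45 of the 55 Rab genes the 95% interval of the difference lay within a 1.2-fold change in either direction (log2 of -0.26 to 0.26), as it did for 56.9% of all genes. These intervals narrow with level: they lay within 1.2-fold for all 23 Rab genes with a mean of 1000 to 4000, against 93.8% of all genes of that level, and for all 16 with a mean of 4000 or more, against 97.3%. Of the 10 Rab genes with a mean of 100 to 1000 they did so for 6, against 56.7%. The summed normalised counts of the family were 208817 ± 1317 in AAV8-irisin mice and 207568 ± 2744 in AAV8-GFP mice (SD, n = 5 each), or 0.581% ± 0.0037 and 0.577% ± 0.0050 of all normalised counts in AAV8-irisin and AAV8-GFP mice.

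**Figure D2:**
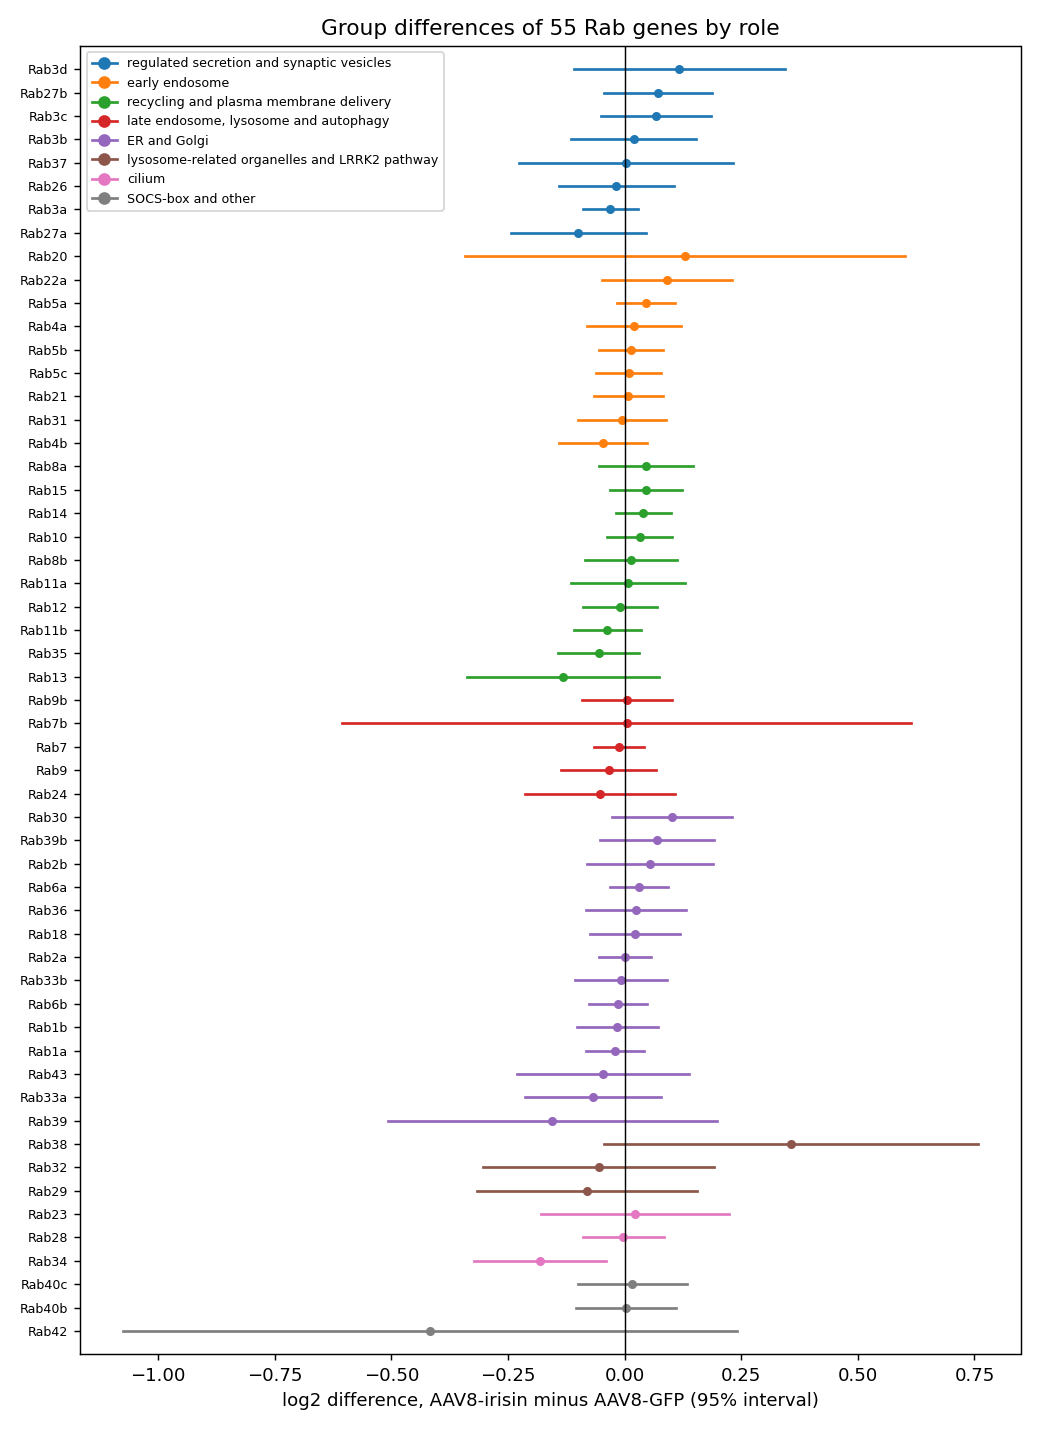
Log2 difference, AAV8-irisin minus AAV8-GFP, of each of the 55 Rab genes on the horizontal axis, with the 95% interval from limma as a bar and the colour giving the role. Points lie on both sides of 0 within every role, the interval of Rab34 alone leaves out 0, and the widest intervals are those of the rare Rab42, Rab7b and Rab20.

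The 8 Rabs of regulated secretion and synaptic vesicles had a median log2 difference of 0.011, with 5 higher and 3 lower. Rab3a, the Rab of synaptic vesicles with the highest level per kilobase (gene ENSMUSG00000031840.12, chr8:70754679-70758677, plus strand), had 15789, 16056, 16048, 15522 and 16178 normalised counts in AAV8-irisin mice, against 16946, 15956, 16186, 16296 and 15929 in AAV8-GFP mice. The highest value was that of AAV8-GFP mouse 1 and the groups overlapped, with a log2 difference of -0.031 (SE 0.028, 95% interval -0.090 to 0.028, limma p = 0.285, exact permutation p = 0.151). Leaving out that mouse gave -0.016. Its relatives Rab3c and Rab3b differed by 0.067 and 0.019. Rab3c, another vesicle Rab, had 15641 in AAV8-GFP mouse 1 and 17687 to 19731 in the other 9 mice. Without that mouse the difference was 0.0091 for Rab3c and 0.061 for Rab3b.

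Rab3d, known from secretory granules of exocrine and endocrine cells, varied most between mice of 1 group among the Rab genes with a mean of 100 or more, with a within-group SD of 0.20 on the log2 scale. Its values were 542, 541, 552, 651 and 649 in AAV8-irisin mice and 458, 544, 701, 558 and 468 in AAV8-GFP mice. AAV8-GFP mouse 3 held the highest value and AAV8-GFP mouse 1 the lowest, so the AAV8-GFP range enclosed the AAV8-irisin range (log2 difference 0.12, SE 0.11, limma p = 0.286, exact permutation p = 0.389). With 1 mouse left out the difference ran from 0.058 (AAV8-GFP mouse 1 left out) to 0.21 (AAV8-GFP mouse 3 left out). Rab27a, which tethers secretory lysosomes and granules at the plasma membrane, had 325, 395, 348, 345 and 363 in AAV8-irisin mice and 394, 361, 386, 362 and 397 in AAV8-GFP mice. AAV8-irisin mice 1, 3 and 4 lay below all AAV8-GFP mice and the other two did not (log2 difference -0.10, SE 0.067, 95% interval -0.24 to 0.046, limma p = 0.164, exact permutation p = 0.119). Its paralog Rab27b differed by 0.071, Rab26, which acts on synaptic vesicles and autophagy, by -0.018, and Rab37, a Rab of secretory granules, by 0.0032, all with intervals that took in 0. With AAV8-GFP mouse 1 left out, the sign of Rab26 turned, to 0.022, and Rab27b differed by 0.036.

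Among the 9 early endosome Rabs 7 had a higher mean in AAV8-irisin mice and 2 a lower one, with a median log2 difference of 0.014. Rab5a, which drives fusion of early endosomes (gene ENSMUSG00000017831.8, chr17:53479234-53507680, plus strand), had 4082, 4107, 4148, 4125 and 3966 normalised counts in AAV8-irisin mice and 3998, 3982, 3984, 3884 and 3940.5 in AAV8-GFP mice. AAV8-irisin mice 1 to 4 lay above every AAV8-GFP mouse and AAV8-irisin mouse 5 lay inside their range. The log2 difference was 0.046 (SE 0.029, 95% interval -0.017 to 0.11), with a limma p of 0.140 and an exact two-sided permutation p of 0.0317. The smallest exact permutation p that 5 mice against 5 allow is 0.00794, and these values were not adjusted for the 55 genes. Its paralogs Rab5b and Rab5c differed by 0.014 and 0.0089. Rab22a, which acts in sorting at early endosomes, had 2005, 1957, 2105, 2169.8 and 2283 in AAV8-irisin mice and 1792, 1971, 1778, 2205 and 2156 in AAV8-GFP mice. Both groups held low and high values and overlapped over most of their range (log2 difference 0.091, SE 0.065, 95% interval -0.049 to 0.23, limma p = 0.186, exact permutation p = 0.270). Leaving out AAV8-GFP mouse 1 gave a difference of 0.056, leaving out mouse 3 of that group 0.053 and leaving out its mouse 4 gave 0.13. Of the other early endosome Rabs, Rab4a and Rab4b, which return cargo rapidly to the surface, differed by 0.020 and -0.046, Rab21, an integrin-trafficking Rab, by 0.0076, Rab31 by -0.0056, and the rare Rab20 by 0.13 with an interval of -0.34 to 0.60. Without AAV8-GFP mouse 1 the difference was 0.26 for Rab20, 0.049 for Rab4a and -0.021 for Rab4b.

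Promoters of the family were searched for short motifs on both strands, in the RefSeq windows of 250 bases before to 50 after each gene's start on GRCm38.p6, which covered 45 of the 55 Rab genes with 57 windows. The longest motif searched was the core CACGTG with GT before it and AC after it, the palindromic form of the element bound by the lysosomal regulator TFEB and its relatives, and it was searched after values of these genes had been seen. It stood in 3 of 57 Rab windows (5.26%) and in 0.326% of all 32851 windows. The 3 stretches are shown because they place the same 10 letters, in capitals, at the starts of endosomal and autophagy Rabs, with 15 bases on each side, 5′ to 3′ on the strand of the gene.
Rab21, chr10:115315599-115315638, minus strand: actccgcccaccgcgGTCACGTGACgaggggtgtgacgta
Rab24, chr13:55321956-55321995, minus strand: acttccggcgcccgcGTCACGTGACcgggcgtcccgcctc
Rab5a, chr17:53479122-53479161, plus strand: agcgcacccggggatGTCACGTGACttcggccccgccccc
The first letter of the motif lies 32 bases before the RefSeq start of Rab21, 97 before that of Rab5a and on the first base of Rab24. The log2 differences of the 3 genes were 0.0076 for Rab21, -0.052 for Rab24, a Rab of autophagy, and 0.046 for Rab5a, and none passed the test. The core CACGTG without the flanks stood in 10.5% of Rab windows and 7.15% of all windows. GGGCGG, the letters of the GC box, stood in 71.9% of Rab windows and 35.7% of all, TATAAA in 7.02% of Rab windows and 13.6% of all, CCAAT in 45.6% and 37.4%, and TGACGTCA in 1.75% and 1.79%. A match in these letters describes the sequence only.

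The 10 Rabs of recycling endosomes and delivery to the plasma membrane had a median log2 difference of 0.010, with 6 higher and 4 lower. Rab14, which moves cargo between endosomes and the Golgi (gene ENSMUSG00000026878.17, chr2:35180205-35201120, minus strand), had 8432, 8575, 8564, 8664 and 8645 in AAV8-irisin mice and 8058, 8532, 8262, 8417 and 8451 in AAV8-GFP mice. AAV8-irisin mouse 1 lay inside the AAV8-GFP range and the other four above it. Its log2 difference was 0.040 (SE 0.028, 95% interval -0.019 to 0.10, limma p = 0.171, exact permutation p = 0.0238) and without AAV8-GFP mouse 1, the lowest of the 10 for this gene, it was 0.027.

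Rab35, which recycles receptors and synaptic vesicle proteins to the surface, had 2710.2, 2565, 2850.3, 2660.3 and 2793 in AAV8-irisin mice and 2878, 2914, 2706, 2921 and 2696 in AAV8-GFP mice. The groups overlapped (log2 difference -0.056, SE 0.041, 95% interval -0.14 to 0.031, limma p = 0.190, exact permutation p = 0.183), and without AAV8-irisin mouse 2 the difference was -0.036. Rab13, known for delivering proteins to tight junctions, had 139, 132, 136, 121 and 112 in AAV8-irisin mice and 156, 132, 145, 136 and 132 in AAV8-GFP mice. AAV8-irisin mice 4 and 5 were lowest of all and AAV8-GFP mouse 1 highest (log2 difference -0.13, 95% interval -0.34 to 0.073, limma p = 0.189, exact permutation p = 0.143). The difference without AAV8-GFP mouse 1 was -0.093, and without AAV8-irisin mouse 5 it was -0.085. The slow-recycling Rabs Rab11a and Rab11b differed by 0.0067 and -0.037, Rab8a and Rab8b, which carry vesicles to the surface and to cilia, by 0.045 and 0.013, Rab10, which inserts glucose transporters in fat cells, by 0.032, Rab12 by -0.0099 and Rab15 by 0.045. For Rab11a the sign turned, to -0.050, without AAV8-GFP mouse 1, which had 2719 normalised counts against 2958 to 3353 in the other 9 mice.

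Late endosome, lysosome and autophagy Rabs numbered 5, with 2 higher, 3 lower and a median log2 difference of -0.012. Rab7 (gene ENSMUSG00000079477.9, chr6:87999106-88045270, minus strand) was the steadiest gene of the family, with a within-group SD of 0.016 on the log2 scale against a median of 0.058 for 200 genes of like level. It had 10286, 10117, 10271, 10092 and 10018 normalised counts in AAV8-irisin mice and 10218, 10200.4, 10178, 10425 and 10194 in AAV8-GFP mice. AAV8-GFP mouse 4 held the highest value and the rest of both groups overlapped, with a log2 difference of -0.012 (SE 0.025, 95% interval -0.067 to 0.042, limma p = 0.637, exact permutation p = 0.246). Rab9 and Rab9b, which return receptors to the Golgi, differed by -0.034 and 0.0052, and Rab24 by -0.052. Rab24 had 1720.5 in AAV8-GFP mouse 1 and 1306 to 1538 in the other 9 mice, and without that mouse its difference was 0.014. Rab7b, a rare relative of Rab7, had a mean of 41.2 normalised counts and an interval of -0.60 to 0.61.

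The 14 Rabs of the endoplasmic reticulum and Golgi split evenly, 7 higher and 7 lower, with a median log2 difference of -0.0029. Rab6b, the form of Rab6 enriched in brain, had 31972, 30763, 30196, 31775 and 32596 in AAV8-irisin mice and 30682, 31575, 32114, 32394 and 32066 in AAV8-GFP mice. Rab6a had 20218, 21039, 20468, 20402 and 20046 in AAV8-irisin mice and 19057, 20828, 20098, 19879 and 20216 in AAV8-GFP mice. The groups overlapped for both, with log2 differences of -0.014 for Rab6b (SE 0.029, limma p = 0.631, exact permutation p = 0.579) and 0.030 for Rab6a (SE 0.029, limma p = 0.318, exact permutation p = 0.262). The Rab6a difference was 0.013 without AAV8-GFP mouse 1. Rab2a had 9932, 10078, 10029, 9840.4 and 9664 in AAV8-irisin mice and 9902, 9965, 9894, 10008 and 9725 in AAV8-GFP mice, which overlapped over most of their range (log2 difference 0.0014, 95% interval -0.055 to 0.058, limma p = 0.958, exact permutation p = 0.913).

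Rab30, a Golgi Rab, had 1367, 1382, 1494, 1393 and 1565 in AAV8-irisin mice and 1200.4, 1409, 1473, 1366 and 1269 in AAV8-GFP mice. AAV8-irisin mice 3 and 5 lay above all AAV8-GFP mice and AAV8-GFP mice 1, 4 and 5 below all AAV8-irisin mice, mouse 4 by less than 1 normalised count, with the rest between them (log2 difference 0.10, SE 0.060, 95% interval -0.027 to 0.23, limma p = 0.112, exact permutation p = 0.167). Without AAV8-GFP mouse 1 the difference was 0.062. Rab1a and Rab1b, which move vesicles from the endoplasmic reticulum to the Golgi, differed by -0.020 and -0.015, and Rab2b by 0.055. Omitting AAV8-GFP mouse 1 gave 0.010 for Rab1b and 0.019 for Rab2b. Rab18, a Rab of lipid droplets and the endoplasmic reticulum, differed by 0.022 with all mice and -0.022 without AAV8-GFP mouse 1. Rab33a and Rab33b differed by -0.068 and -0.0073, Rab36 by 0.025, Rab43 by -0.047, Rab39 by -0.16 with an interval of -0.51 to 0.20, and Rab39b, whose human counterpart is mutated in X-linked intellectual disability with parkinsonism, by 0.070. That last difference was 0.020 without AAV8-GFP mouse 1.

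Rab32, Rab38 and Rab29 serve lysosome-related organelles, and Rab29 recruits the Parkinson's disease kinase LRRK2 to membranes. Rab38, known from pigment granules, had the largest positive difference of the family, with 50.6, 58.6, 43.0, 47.2 and 56.8 normalised counts in AAV8-irisin mice and 35.0, 40.4, 26.4, 49.4 and 52.2 in AAV8-GFP mice. AAV8-irisin mice 2 and 5 were highest and AAV8-GFP mice 1, 2 and 3 lowest, and the groups overlapped between them. Its log2 difference was 0.36 (SE 0.19, 95% interval -0.044 to 0.76, limma p = 0.0771, exact permutation p = 0.103). It ran from 0.22 without AAV8-GFP mouse 3 to 0.45 without AAV8-GFP mouse 5. Rab29 had 128, 97.0, 117, 128 and 116 in AAV8-irisin mice and 139, 133, 117, 125 and 106 in AAV8-GFP mice, overlapping groups and a within-group SD of 0.16, which lay below the median of 0.19 for genes of like level (log2 difference -0.081, limma p = 0.476, exact permutation p = 0.476). That difference shrank to -0.015 without AAV8-irisin mouse 2 and to -0.038 without AAV8-GFP mouse 1, and it was -0.14 without AAV8-GFP mouse 5. Rab32 differed by -0.056, with an interval of -0.30 to 0.19.

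Of the 3 Rabs of the primary cilium, Rab34, which acts early in building the cilium and in positioning lysosomes, had the smallest limma p of the family. The gene (ENSMUSG00000002059.18, chr11:78188430-78192193, plus strand) had 631, 635, 651, 631 and 562 normalised counts in AAV8-irisin mice, against 758, 618, 763, 699 and 696 in AAV8-GFP mice. All AAV8-irisin mice except mouse 5 lay between 631 and 651, AAV8-GFP mouse 2 lay below them at 618, and the other 4 AAV8-GFP mice lay above all AAV8-irisin mice. The means were 622 ± 34.5 in AAV8-irisin mice and 707 ± 58.8 in AAV8-GFP mice (SD, n = 5 each). The log2 difference was -0.18 (SE 0.066, 95% interval -0.32 to -0.040), with a limma p of 0.0154, an adjusted limma p of 0.942 and an exact permutation p of 0.0397. The exact permutation p was smaller for Rab14 (0.0238) and Rab5a (0.0317). Rab34 did not pass over all genes. Without AAV8-GFP mouse 1 the difference was -0.16 with a limma p of 0.0365.

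Rab34 was related to microglial markers only before adjustment. Across the 10 mice it correlated with the mean log2 level of the plaque-associated microglial markers (Pearson r = 0.70, permutation p = 0.0259, adjusted 0.719; Spearman rho = 0.67, permutation p = 0.0385, adjusted 0.720 over 770 relations of 55 genes with 14 marker lists). That marker level was 8.69 to 9.23 in AAV8-irisin mice and 8.92 to 9.36 in AAV8-GFP mice, and 1 of 9 tested markers had a higher mean in AAV8-irisin mice, while Clec7a was below the filter. After centring on group means r was 0.59, and without the 2 mice farthest from the median marker level it was 0.49. With the 12 microglial markers r was 0.69 (permutation p = 0.0272, adjusted 0.719) and rho was 0.66 (permutation p = 0.0444, adjusted 0.730). For that list r was 0.64 after centring on group means, 0.65 within AAV8-irisin mice and 0.64 within AAV8-GFP mice. It was 0.27 without the 2 farthest mice. Leaving out the extremes narrows the range of marker levels, so a lower r cannot show that a relation rested on them. These relations were not particular to Rab34. With the plaque-associated list r was 0.74 for Rab39 and 0.70 for Rab13 (adjusted permutation p = 0.659 for each). With the microglial list r was 0.68 for Rab13 (adjusted permutation p = 0.719). The part of microglial content in the Rab34 values was not tested. None of the 770 relations passed adjustment, the smallest adjusted permutation p being 0.619 for r and 0.668 for rho.

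Rab23, which restrains Hedgehog signalling at the cilium, had 977, 1035, 762, 1032 and 1133 in AAV8-irisin mice and 981, 1063, 998, 826 and 971 in AAV8-GFP mice, with a within-group SD of 0.18 against 0.10 for genes of like level. AAV8-irisin mouse 3 was lowest and AAV8-irisin mouse 5 highest of all (log2 difference 0.022, SE 0.094, limma p = 0.817, exact permutation p = 0.817). Rab28, which acts in cilia of photoreceptors, differed by -0.0025 (interval -0.089 to 0.084). The remaining 3 genes were Rab40b and Rab40c, whose proteins carry a SOCS box that joins them to ubiquitin ligases, and the little-studied Rab42. Rab40b and Rab40c differed by 0.0033 and 0.016. Rab42 had 26.3, 9.40, 25.1, 16.1 and 33.2 in AAV8-irisin mice and 34.6, 17.0, 34.4, 26.3 and 28.6 in AAV8-GFP mice, and the groups overlapped (log2 difference -0.42, 95% interval -1.08 to 0.24, limma p = 0.195, exact permutation p = 0.238). Its difference was -0.16 when AAV8-irisin mouse 2 was left out and -0.59 when mouse 5 of that group was. Without AAV8-GFP mouse 1 it was -0.33.

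**Figure D3:**
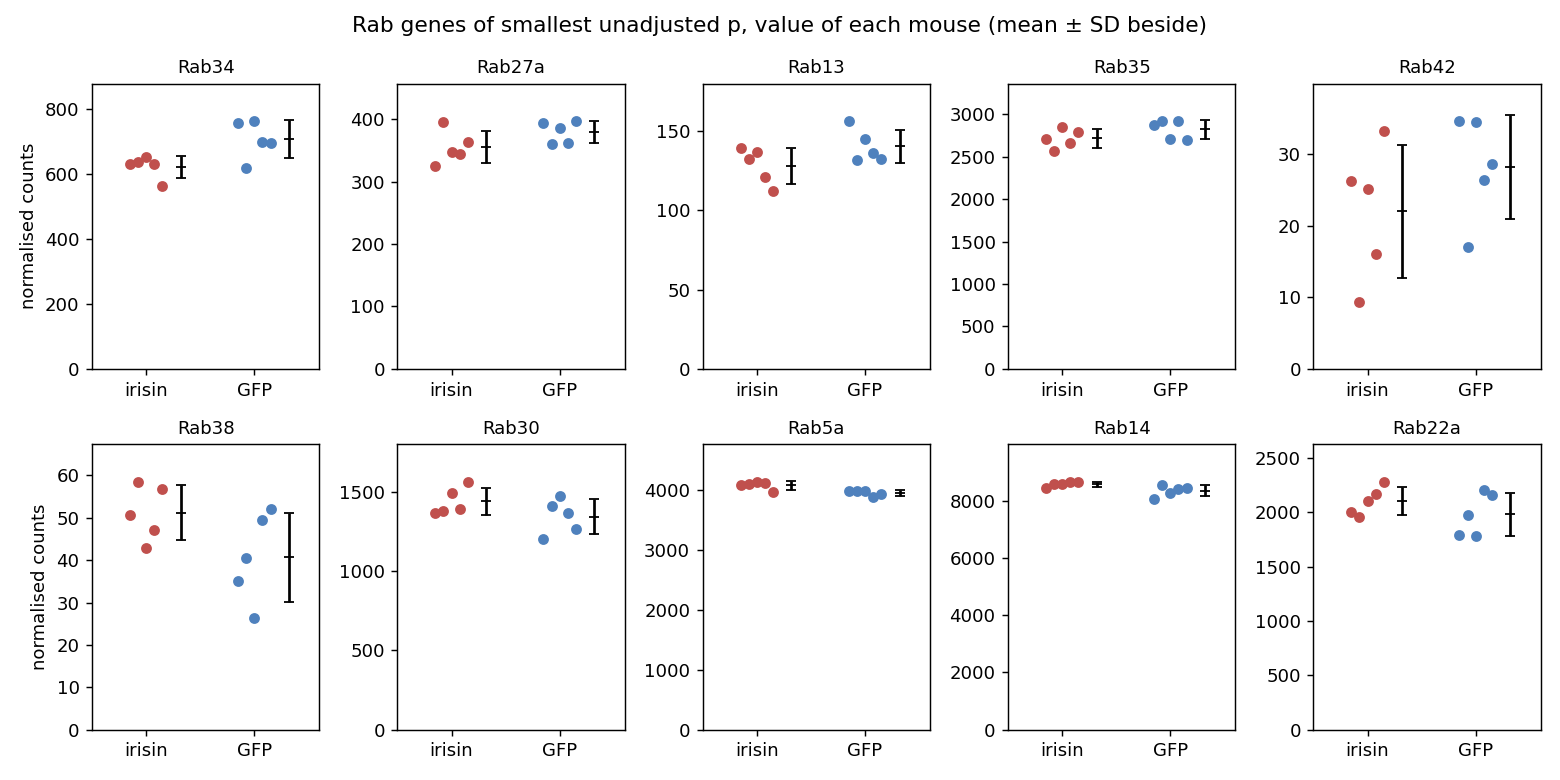
Normalised counts (vertical axis from 0) of the 10 Rab genes with the smallest unadjusted limma p, 5 with a lower mean in AAV8-irisin mice (top row) and 5 with a higher mean (bottom row), 1 point a mouse, AAV8-irisin left of AAV8-GFP, with the mean and SD beside. The groups overlap in all 10 panels, and Rab34 in AAV8-irisin mice lies at 562 to 651 against 618 to 763 in AAV8-GFP mice.

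Rab42 and Rab20 were also the members nearest the filter. Rab20 had 15.2 ± 1.61 normalised counts in AAV8-irisin mice and 14.1 ± 3.67 in AAV8-GFP mice (SD, n = 5 each), and Rab42, at 9.40 in AAV8-irisin mouse 2, was the only member under 10 in any library. Outside the filter, Rab17, Rab19 and Rab25 reached 10 in 0 libraries. Rab44 reached it in 1, with 12.3 in AAV8-irisin mouse 1 and 0.676 to 4.26 in the other 9 mice. These 4 genes were not tested.

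Most Rab genes varied little between mice. The within-group SD was 0.016 to 0.56 on the log2 scale, with a median of 0.076 against 0.12 for all genes, and it lay below the median of 200 genes of like mean level for 36 of the 55 Rab genes. Rab7, Rab2a, Rab5a, Rab14, Rab1a, Rab21, Rab4a, Rab9, Rab33b, Rab13, Rab32 and Rab20, 12 genes in all, were among the steadiest 10% of their like-level genes. Rab3d, Rab23 and Rab24 were among the most variable 10%.

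Values of AAV8-GFP mouse 1 varied with exon length and base composition. Each mouse's log2 deviation from the mean of the 10 mice was taken as a median over the 27 Rab genes with exons longer than the family median of 3538 bases and over the other 28. The long median minus the short median was -0.14 in AAV8-GFP mouse 1, against -0.029 to 0.045 in the other 9 mice. Across the 55 Rab genes its deviations had a Spearman rho of -0.52 with exon length and 0.71 with the GC content of the longest transcript, and across all genes tested the values were -0.31 and 0.37. The relation with GC content was not particular to this mouse: rho across the Rab genes was -0.61 in AAV8-GFP mouse 2, of the opposite sign, and -0.21 to 0.16 in the other 8 mice. Nor was that with length: rho across the Rab genes was 0.37 in AAV8-irisin mouse 5, 0.32 in AAV8-irisin mouse 4 and -0.21 to 0.18 in the rest. Over all genes with a mean of 1000 or more, rho with length was -0.53 in AAV8-GFP mouse 1 and -0.39 in AAV8-irisin mouse 3. It was 0.36 in AAV8-irisin mice 4 and 5 and 0.0078 to 0.28 in the rest. Genes are not independent replicates, and length and GC content were themselves related among the Rab genes (rho = -0.45). AAV8-GFP mouse 1 had the lowest value of the 10 for long genes such as Rab3c, Rab30, Rab27b, Rab18 and Rab14, and also for Rab39b and Rab11a. It had the highest for Rab24, Rab26, Rab4a, Rab4b, Rab1b and Rab3a.

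**Figure D4:**
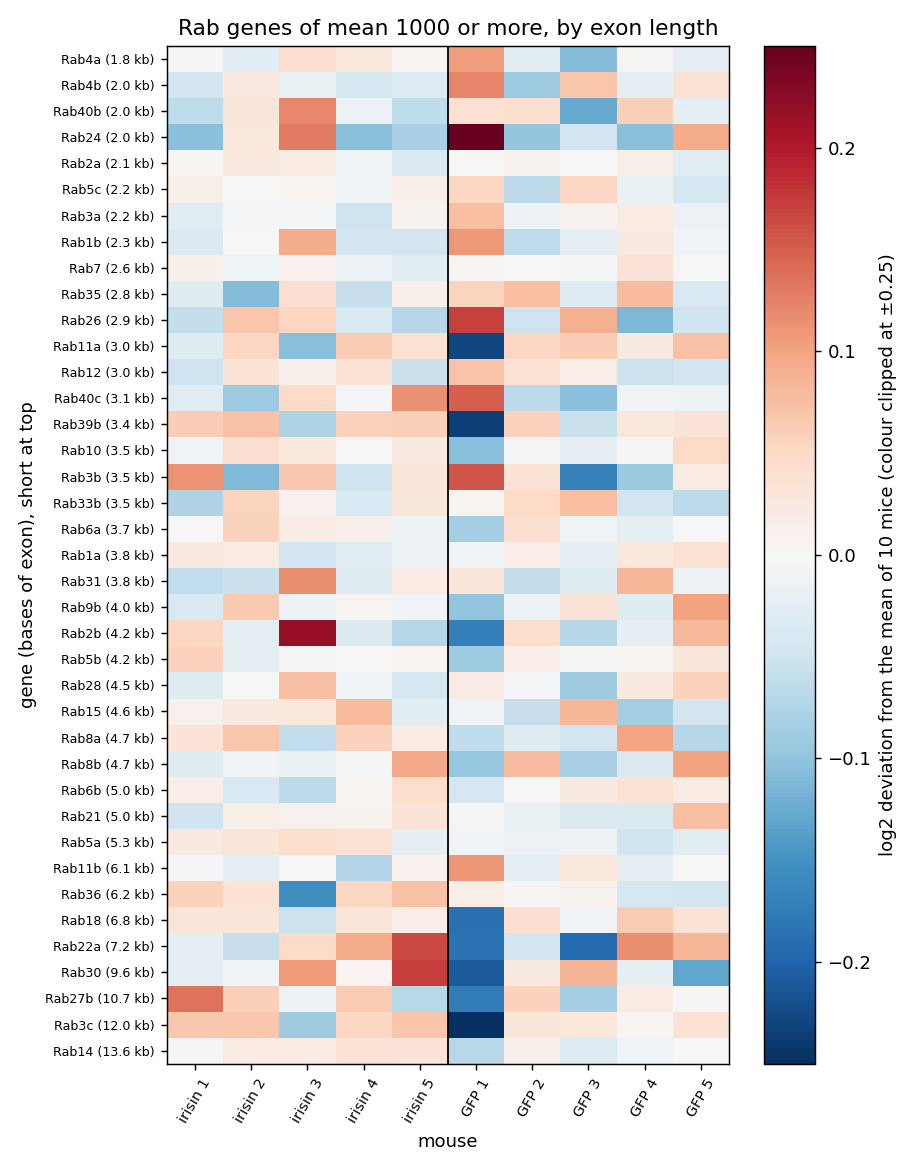
Log2 deviation of each mouse from the mean of the 10 mice (colour, red above and blue below, clipped at 0.25 in size) for the 39 Rab genes with a mean of 1000 or more, in rows from short to long exons, AAV8-irisin mice left of the line and AAV8-GFP mice right of it. The column of AAV8-GFP mouse 1 runs mostly red at the top and blue at the bottom.

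Group differences were related to exon length as well. With all mice, 20 of the 27 long and 11 of the 28 short Rab genes were higher in AAV8-irisin mice, with median log2 differences of 0.022 and -0.014 and a rho of 0.46 between difference and exon length. Over 17330 genes with a length, 55.7% of the long and 43.1% of the short genes were higher, with a rho of 0.15. Without AAV8-GFP mouse 1, 17 of 27 long and 14 of 28 short Rab genes were higher, with medians of 0.0091 and -0.0024 and a rho of 0.27. Over all genes the shares were then 50.2% and 49.4% and the rho 0.0088. The sign of the difference turned for 12 of the 55 Rab genes when this mouse was left out, although the number with a higher mean stayed at 31. These were Rab1b, Rab5b, Rab7b, Rab8b, Rab9b, Rab11a, Rab12, Rab18, Rab24, Rab26, Rab28 and Rab31, with differences of at most 0.052 in size with and without it.

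**Figure D5:**
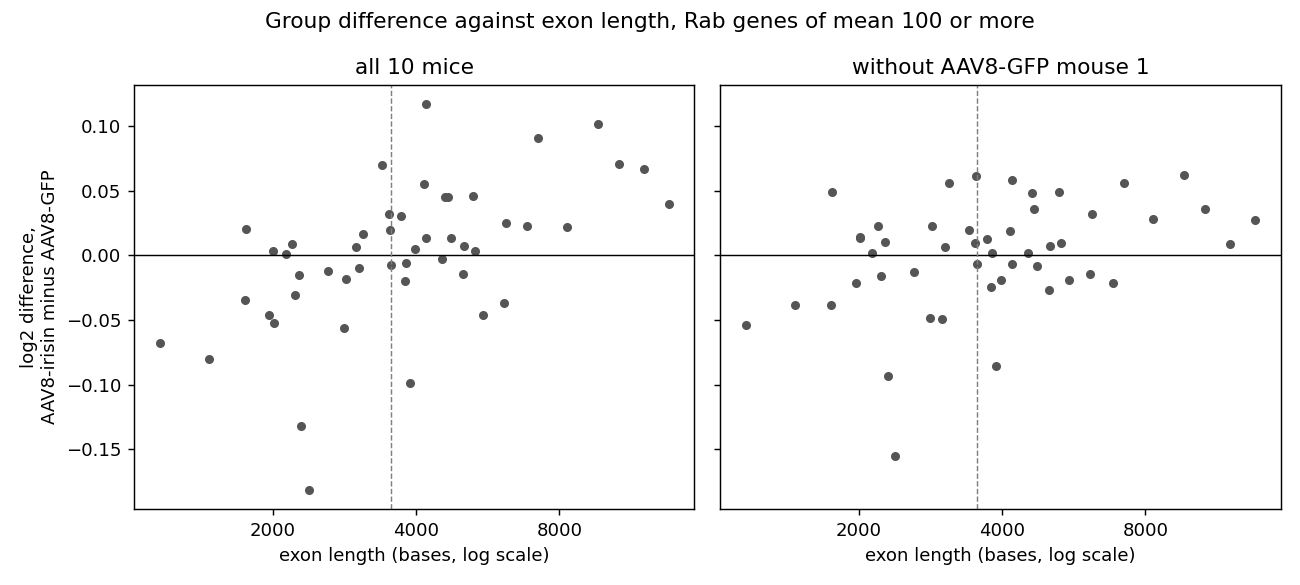
Log2 difference, AAV8-irisin minus AAV8-GFP, against exon length in bases (log scale) for the 49 Rab genes with a mean of 100 or more, with all 10 mice (left) and without AAV8-GFP mouse 1 (right), the dashed line marking the median length. With all mice most long genes lie above 0 and most short genes below it, and without that mouse the 2 sides of the line differ less.

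The genes that run the Rab cycle were described from lists by role. Of 119 listed genes 117 were tested, and 0 passed the test (background 0% of all genes). The mean was higher for 60 and lower for 57, the median log2 difference was 0.0057, and 4 of them had an unadjusted limma p under 0.05, against 4.49% of all genes. Exchange factors, which activate Rabs, numbered 32 tested, with 13 higher and a median of -0.0067. GTPase-activating proteins, which switch Rabs off, numbered 27, with 16 higher and a median of 0.019. GDP dissociation inhibitors, escort and prenylation proteins numbered 8, with 6 higher and a median of 0.035. Effectors of secretory Rabs had 7 of 14 higher and effectors of endosomal and other Rabs 18 of 36.

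Dennd6a, an exchange factor for Rab14, had 1283, 1235, 1303, 1208 and 1211 normalised counts in AAV8-irisin mice and 1096, 1205, 1171, 1154 and 1108 in AAV8-GFP mice. The groups did not overlap, with 1208 as the lowest AAV8-irisin value and 1205 as the highest AAV8-GFP value (log2 difference 0.12, SE 0.044, limma p = 0.0147, adjusted limma p = 0.942, exact permutation p = 0.00794, the smallest possible), and its exons overlap those of Arf4os on the opposite strand. Rabgap1, a GTPase-activating protein with a TBC domain, had 3466, 3447, 3478, 3571 and 3443 in AAV8-irisin mice and 2948, 3275, 3289, 3401 and 3376 in AAV8-GFP mice. Here too the groups were apart (log2 difference 0.10, SE 0.040, limma p = 0.0305, adjusted limma p = 0.942, exact permutation p = 0.00794, the smallest possible), AAV8-GFP mouse 1 was lowest, the difference without it was 0.062, and an exon overlaps Gpr21 on the same strand. Without AAV8-GFP mouse 1 the limma p was 0.0275 for Dennd6a (log2 difference 0.11) and 0.0501 for Rabgap1, with an adjusted limma p of 0.982 for each. With all mice, these were 2 of 117 cycle genes with groups apart, against 0.803% of all genes.

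Rims2, a scaffold of the active zone that binds Rab3, ranged over 2961 to 3258 in AAV8-irisin mice and 2636 to 3038 in AAV8-GFP mice (log2 difference 0.10, limma p = 0.0405, exact permutation p = 0.0556). Rabep2, an effector of Rab4 and Rab5, ranged over 379 to 428 in AAV8-irisin mice and 418 to 495 in AAV8-GFP mice (log2 difference -0.14, limma p = 0.0476, exact permutation p = 0.0556). The groups overlapped for both genes and the adjusted limma p was 0.942 for each. The other genes of smallest p on their lists differed by 0.11 for the escort protein gene Chml, -0.062 for Rabac1, whose protein binds prenylated Rabs, 0.13 for the GTPase-activating protein gene Tbc1d17, 0.15 for the Rab35 effector gene Acap2, 0.11 for the Rab27 effector gene Sytl2 and -0.36 for the exchange factor gene Dennd2c. Each of these had a 95% interval that took in 0.

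Some values could hold reads of other genes. In the GENCODE M21 transcripts 33 of the 55 Rab genes shared no stretch of 50 bases with another gene. Rab43 shared 74.5% of its stretches, all with the overlapping Gm45140, Rab4b 58.1%, and Rab7 11.2%, the last with pseudogenes among others, so the values of these 3 genes are uncertain. Among the Rab genes themselves only Rab4b and Rab11b shared such a stretch with another member, so the closely related pairs such as Rab6a and Rab6b or Rab5a and Rab5b could be told apart over that length. Exons of 15 Rab genes overlap a gene on the opposite strand, among them Rab3a with Mpv17l2, Rab5a with Pp2d1, Rab6a with Mrpl48 and Rab7 with Gm5577, and exons of 6 overlap a gene on their own strand, among them Rab27a with Gm27186.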

How the data were processed

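Poly(A) RNA of 10 dissected hippocampi was sequenced, per the labels' protocols. Per the submitters' processing notes, bcl2fastq 2.17, DESeq2 (no version) and build mm10 were used. Aligner, counting tool, strand setting and annotation are not given in the sources used here. Each gene and mouse has 1 deposited signal value, which the authors call DESeq2 normalised counts. Its low values were whole multiples of the value of 1 read, within 0.1 reads, in only 46.5% to 69.6% of cases, so whole reads were not recovered, depth is unknown and no count test was run. The precision given is the spread between mice.

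Genes reaching 10 in 5 or more of the 10 libraries were tested on log2(value + 1), which understates changes of low genes, with limma 3.58.1 in R 4.3.3 (lmFit, eBayes with trend, Benjamini-Hochberg over 17556 genes, threshold 0.05, two-sided, no block). Each title names its own mouse, and p-values rest on variation among mice. The fit was also run on simulated whole counts with known changes. Genes there were drawn independently, without the relations to length and GC content seen here, so no statement above rests on that run. Named Rab genes also got an exact permutation test of the mean log2 difference over all assignments of 5 and 5 mice. The fit was repeated under other pseudocounts, filters, scalings, weights and prior variances, with the mouse number as a block and without each mouse in turn.

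Positions and exon lengths (union of exons) came from GENCODE M21 on mm10, and promoter windows from RefSeq. Correlations across mice used 100000 permutations. The Rab genes given mouse by mouse were the 5 of smallest limma p with a higher mean and the 5 with a lower mean, the 5 of highest level per kilobase and the 3 of largest within-group SD among those with a mean of at least 100. For the cycle lists, the 2 genes of smallest p per list were named. The members, roles and lists were chosen with earlier results of these data known.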

Additional observations from a re-analysis of the deposited data

Results flagged for a closer look

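Within each group of 5 mice the value farthest from the others was set against Dixon's 95% critical value of 0.71 for the gap to its neighbour over the whole range. Of 110 groups (55 genes in 2 groups) 14 exceeded it, where about 1 in 20, or 5.5, would do so by chance if groups were independent. They were not independent, because all genes were measured in the same mice, so 14 against 5.5 cannot show an excess. The share over all genes was not taken, so a difference between Rab genes and other genes was not tested. Of the 14 values that exceeded it, 4 lay in AAV8-irisin mouse 3, each the lowest of its group. These were Rab3c at 17687 normalised counts, Rab18 at 4176, Rab39b at 1449.9 and Rab36 at 955. Another 3 lay in AAV8-GFP mouse 1, again the lowest: Rab3c at 15641, Rab5b at 5186 and Rab11a at 2719. AAV8-GFP mouse 4 was highest for Rab7 at 10425 and for Rab8a at 1155, and lowest for Rab32 at 70.6. AAV8-irisin mouse 5 was lowest for Rab34 at 562 and highest for Rab8b at 2490.4. Rab21 was lowest in AAV8-irisin mouse 1 at 2796 and highest in AAV8-GFP mouse 5 at 3048. For Rab34, the mouse that stood apart lay farther from the AAV8-GFP group than the rest of its own group.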

How the results depend on the processing

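No Rab gene passed the test under any of the 19 alternatives that were run, with a smallest adjusted limma p of 0.794. Over all genes the count of calls was 0 in each, at 595 to 1096 genes with an unadjusted p under 0.05 when 1 mouse was left out, except without a filter on low values, where it was 1, the predicted gene Gm49383. The Rab median of 0.0048 was -0.0052 to 0.012 when 1 mouse was left out. Among the named genes the sign turned for Rab2a under upper-quartile rescaling (-0.0015). With 1 mouse left out Rab2a ran from -0.0050 to 0.010, Rab23 from -0.034 to 0.11 and Rab6b from -0.027 to 0.00040. Rab34 ran from -0.23 to -0.15 and kept an unadjusted limma p under 0.05 in each alternative. The cause of these shifts was not tested. The labels do not pair the mice by number. Same-numbered mice deviated with r of -0.089 to 0.030, and 1 of 5 correlated best with its own number, which cannot exclude a pairing. With the replicate block 0 genes passed, 862 had an unadjusted p under 0.05 and the Rab median was 0.0048. The planned count tests were not run because whole reads could not be recovered. Depth is unknown, and for the 6 Rab genes with a mean under 100 no interval lay within a 1.2-fold change. The values without AAV8-GFP mouse 1 for exon length and for genes of the Rab cycle, and the centred correlations, were chosen after seeing the data.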

Other observations

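Of the 770 relations between a Rab gene and a marker list, the closest by Pearson's r across the 10 mice was that of Rab3b, a vesicle Rab, with the mean log2 level of the hippocampal neuron markers. Pearson's r was -0.86 (permutation p = 0.00191, adjusted 0.619) and Spearman's rho was -0.81 (permutation p = 0.00764, adjusted 0.668), so the relation failed adjustment. By rho it was not the closest: Rab8b with the thalamus markers had a rho of -0.85 (permutation p = 0.00260, adjusted 0.668). For Rab3b, Pearson's r was -0.87 after centring on group means and -0.78 without the 2 mice farthest from the median marker level. Rab3b had 1613, 1381, 1564, 1439 and 1523 normalised counts in AAV8-irisin mice and 1665, 1528, 1327, 1399 and 1513 in AAV8-GFP mice.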
